A study of Mus musculus with 12 samples.

Results

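The MAP kinase phosphatases of the dual-specificity phosphatase (DUSP) family were compared between TREM-1+ and TREM-1- eosinophils sorted from the airways of mice with allergic inflammation. The family was taken as 10 genes, chosen by symbol from the 39666 genes of the count table: Dusp1, Dusp2, Dusp4, Dusp5, Dusp6, Dusp7, Dusp8, Dusp9, Dusp10 and Dusp16. The table held all 10. After low counts were filtered, 9 could be tested and Dusp9 could not. The libraries formed 2 groups: TREM-1+ eosinophils (6 libraries) and TREM-1- eosinophils (6 libraries), with 1 of each sorted from each of 6 lavages. Every animal was a wild-type C57BL/6 mouse, 8 to 12 weeks old. All had received 20 µg ovalbumin with 4 mg alum on days 0 and 7 and nebulized 1% ovalbumin for 40 minutes on each of days 16 to 18, with harvest on day 19. Eosinophils were gated as Siglec-F+ cells with low to intermediate Ly6G. Each lavage was pooled from mice whose number the labels do not state, so a pool and not an animal is the replicate, and all comparisons were made within a lavage. Both groups come from challenged airways, so neither is a healthy baseline.

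MAP kinases (ERK, p38 and JNK) are switched on when a threonine and a tyrosine in their activation loop are phosphorylated. A DUSP of this family docks on a MAP kinase and removes both phosphates, which switches it off. Several DUSP genes are themselves induced by the pathway they restrain, so that they act as feedback brakes. ERK and p38 carry signals of interleukin-5 and of eotaxin in eosinophils.

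The catalytic domain of each member holds a short loop whose cysteine carries out the phosphate transfer. The codons of that loop, from its histidine to its arginine, are shown because they encode the active site, and because near-identical stretches could have let reads of 1 member count for another. They were read from the longest protein-coding GENCODE vM21 transcript of each gene (build GRCm38), 5′ to 3′ on the coding strand, with the codon of the catalytic cysteine in capitals.
Dusp1: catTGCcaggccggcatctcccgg
Dusp2: cacTGCcaagctggcatctctcgc
Dusp4: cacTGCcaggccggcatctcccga
Dusp5: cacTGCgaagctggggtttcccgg
Dusp6: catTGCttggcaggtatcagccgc
Dusp7: cacTGCctagcaggcatcagccgt
Dusp9: cacTGTctggcaggggtcagccgc
Dusp8: cacTGTctggctggcatctctcgc
Dusp10: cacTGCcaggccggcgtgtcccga
Dusp16: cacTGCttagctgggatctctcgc
Each coding sequence held exactly 1 such loop. Any 2 members were identical at 13 to 22 of the 24 bases (median 17 over 45 pairs). Over whole transcripts the members shared 0 stretches of 31 bases with one another. With transcripts of any other gene, Dusp1, Dusp2, Dusp4, Dusp5 and Dusp6 also shared 0 such stretches, and the other members shared at most 1.51% of theirs (Dusp8). Transcripts were compared in the sense direction only, so stretches shared with an opposite strand were not searched. In that annotation Dusp1 overlapped Ergic1 on the opposite strand, and Dusp5 and Dusp8 each overlapped a noncoding gene on the opposite strand. The kit keeps strand, but no source used here says whether the counting did, so reads of those partners could be in the counts of these 3 genes.

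Total counts ran from 8626701 (lavage 4) to 19274912 in TREM-1+ libraries and from 16513387 to 21234053 in TREM-1- libraries. Trem1, which encodes the sorted antigen, ran from 73.5 to 130.7 CPM (counts scaled to library size with TMM factors) in TREM-1+ libraries and from 18.4 to 42.1 CPM in TREM-1- libraries, which checks the sort. The summed level of 7 eosinophil markers was 4201 to 6284 CPM in TREM-1+ and 4226 to 6366 CPM in TREM-1- libraries. Of these 7 markers, Alox15 and Prg2 were called higher in TREM-1+ eosinophils, Siglecf, Ccr3, Il5ra and Il1rl1 were called lower, and Epx was not called. Of T and innate lymphoid cell markers, 6 of the 7 tested were called higher in TREM-1+ eosinophils, with a sum of 5.42 to 96.8 CPM in TREM-1+ and 4.80 to 50.2 CPM in TREM-1- libraries. Of neutrophil markers, 6 of the 7 tested were called higher and Retnlg lower, although the gate keeps only cells with low to intermediate Ly6G. The sum of those markers, which Retnlg dominates, was 1039 to 1880 CPM in TREM-1+ and 1296 to 1903 CPM in TREM-1- libraries. Of alveolar macrophage markers 2 of 4 tested were called higher (sum 407 to 931 CPM in TREM-1+, 236 to 690 CPM in TREM-1-, higher in 6 of 6 lavages). Of the markers listed for monocytes and interstitial macrophages 2 of 4 tested were called higher and 1 lower (431 to 1011 CPM in TREM-1+, 551 to 1116 CPM in TREM-1-). Kit, on the mast cell and basophil list, was called higher, and edgeR called 0 of the 8 tested dendritic cell, B cell and epithelial markers (1 at an unadjusted p below 0.05, 0 by DESeq2 and 1 by limma-voom). DESeq2 can leave scarce genes without an adjusted p, so its 0 need not cover all of these markers. No marker among the counted genes was at 0 in all 12 libraries, and 7 of the 8 listed T and innate lymphoid cell markers were among those genes. The part of other cells in the differences below was not tested, and in sorted bulk RNA fewer cells of a type and less RNA per cell cannot be told apart.

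Of the 9 members tested, Dusp5 was higher and Dusp6 and Dusp16 were lower in TREM-1+ eosinophils. Dusp5, a nuclear phosphatase specific for ERK, rose 1.30-fold. Dusp6, the cytoplasmic ERK phosphatase, fell to 0.774 of its TREM-1- level, and Dusp16, a phosphatase of JNK and p38, fell to 0.793. Dusp1, among the most abundant members, differed by -0.03 on the log2 scale and did not pass the test, nor did 5 members at lower levels. Genes were called with edgeR's quasi-likelihood test, with the lavage as a block, at a Benjamini-Hochberg adjusted p below 0.05 over all 18302 tested genes. That test called 9.82% of the tested genes, 3.10% higher and 6.72% lower (568 and 1229 genes). This balance turned with library totals in place of TMM factors, which gave 1880 higher and 376 lower. The 3 called members are among the 4 most abundant, where the standard error of the log2 fold change was smallest. The TREM-1+ and TREM-1- ranges of CPM overlapped in each of the 10 members, whereas in 0.295% of all tested genes the TREM-1+ range lay wholly above and in 0.656% wholly below the TREM-1- range. The median log2 fold change was 0.08 over the 9 tested members and 0.00430 over all tested genes. The median absolute log2 fold change was 0.31 over the members and 0.13 over all tested genes. The member at that median was Dusp10, which was not called (SE 0.16), and Dusp2 and Dusp8 had standard errors of 0.40 and 0.36. These medians therefore do not show that the family changed more than other genes.

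**Figure D1:**
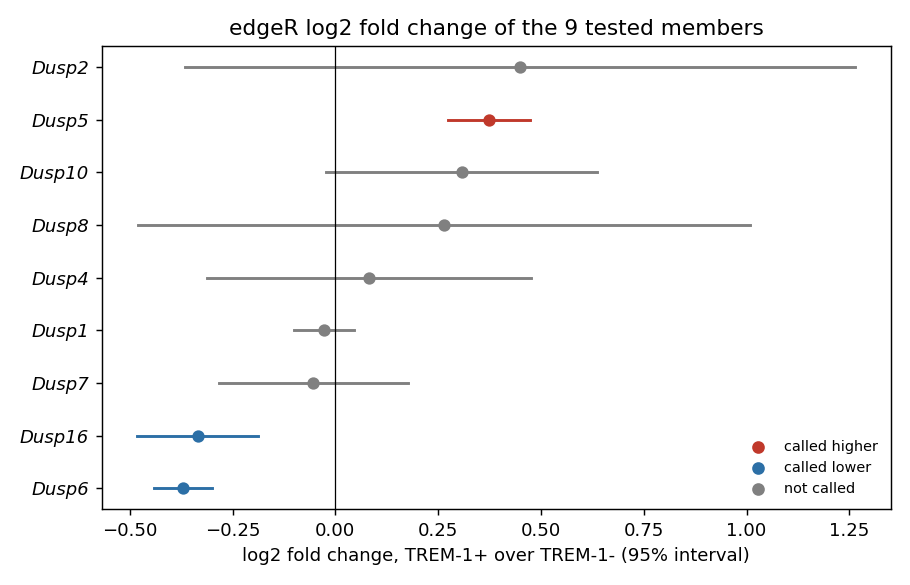
edgeR log2 fold change, TREM-1+ over TREM-1-, of the 9 tested members (points) with 95% intervals (lines). Dusp5 (0.37) lies above 0 and Dusp16 (-0.34) and Dusp6 (-0.37) below it, while the intervals of the other 6 members span 0.

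Levels of different members were compared per kilobase of the longest coding transcript. Dusp1 and Dusp6 led, with 196 ± 48.1 and 157 ± 29.8 CPM per kb in TREM-1+ libraries and 201 ± 52.2 and 203 ± 35.2 CPM per kb in TREM-1- libraries (SD, n = 6 each). Together they held 86.2% of the family's summed level per kb in TREM-1+ and 89.2% in TREM-1- libraries. Their ranges overlapped in both fractions. Such ranges are taken over libraries, and the order of members per kb within a library was not tested. Dusp5 followed at 39.6 ± 4.17 CPM per kb in TREM-1+ and 30.7 ± 4.40 CPM per kb in TREM-1- libraries (SD, n = 6), below the lowest library of either leader. Next came Dusp16 (6.94 and 8.68 CPM per kb in TREM-1+ and in TREM-1-) and Dusp7 (4.78 and 4.92), whose ranges overlapped in TREM-1+ libraries. Dusp10 (2.10 and 1.70), Dusp4 (1.90 and 1.75) and Dusp2 (1.09 and 0.716) were the next 3 on the same scale. Each overlapped its neighbour in TREM-1+ libraries, as Dusp2 did with Dusp8. Dusp8 (0.278 and 0.227 CPM per kb) and Dusp9 (0.0274 and 0.0653 CPM per kb) were the lowest.

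**Figure D2:**
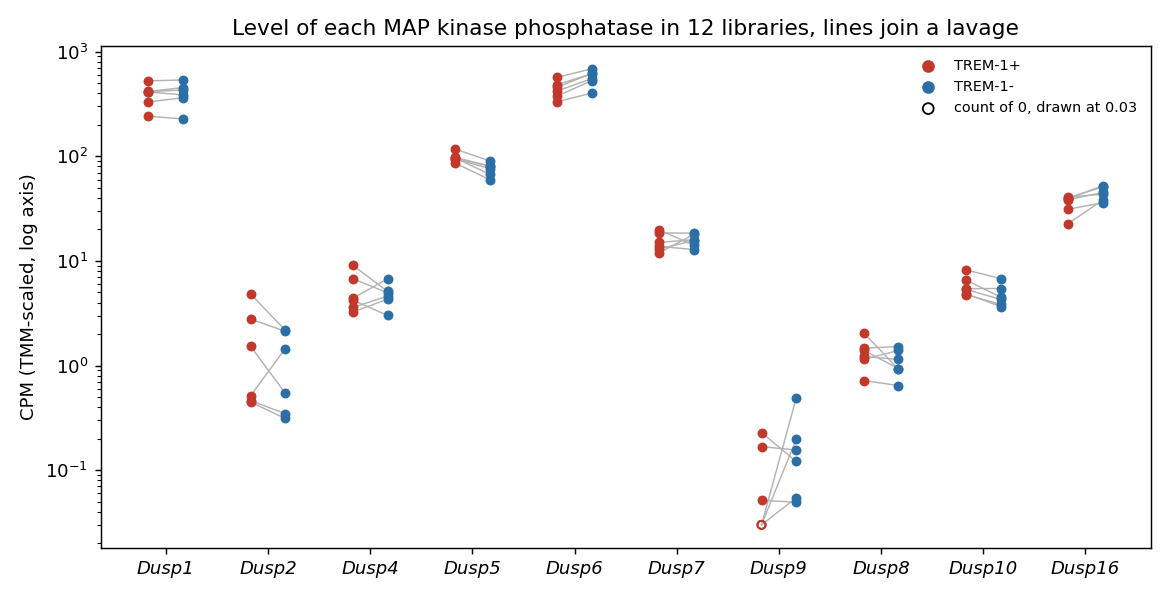
CPM (log axis) of the 10 members in TREM-1+ (red, left) and TREM-1- (blue, right) libraries, with a line for each of the 6 lavages. In every lavage Dusp5 is higher at the TREM-1+ end of its line and Dusp6 and Dusp16 are lower there, and open circles mark the 3 TREM-1+ libraries with a Dusp9 count of 0.

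Dusp1, Dusp2, Dusp4 and Dusp5 encode inducible phosphatases of the nucleus. Dusp5 (NCBI gene 240672) acts on ERK alone and also holds it in the nucleus, and in mice it is known to restrain the survival of eosinophils stimulated with IL-33. It had 86.4 CPM in the lowest, 95.9 CPM in the median and 117 CPM in the highest of 6 TREM-1+ libraries, against 59.7, 78.5 and 90.4 CPM in TREM-1- libraries. The 2 ranges overlapped only slightly, and within each lavage the TREM-1+ library was the higher one. Within a lavage TREM-1+ over TREM-1- was 1.18 at the least (lavage 2) and 1.45 at the most (lavage 6). The mean was 97.9 ± 10.3 CPM in TREM-1+ against 75.9 ± 10.9 CPM in TREM-1- eosinophils (SD, n = 6). edgeR put the log2 fold change at 0.37 ± 0.05 (SE, adjusted p = 9.33e-07). Permuting the signs of the 6 paired log2 differences (exact, two-sided) gave p = 0.0312, the smallest that 64 sign patterns allow. A gene was higher in 6 of 6 lavages in 5.08% of all tested genes. Dusp5 stayed above 0 and called in each of the 14 alternatives that kept the lavage block (log2 fold change 0.28 to 0.50).

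Dusp1 (NCBI gene 19252), a phosphatase mainly of p38 and JNK that stress and glucocorticoids induce, did not pass the test. It had 242, 413 and 526 CPM in the lowest, median and highest TREM-1+ library and 227, 408 and 537 CPM in TREM-1- libraries. The highest library was 2.18 times the lowest within TREM-1+ and 2.36 times the lowest within TREM-1-, whereas TREM-1+ over TREM-1- within a lavage stayed between 0.912 (lavage 5) and 1.06 (lavages 3 and 6). Its edgeR log2 fold change came to -0.03 ± 0.04 (SE, adjusted p = 0.768), with a 95% interval from -0.10 to 0.04. It was lower in TREM-1+ in 4 of 6 lavages, and higher in lavages 3 and 6. With library totals in place of TMM factors the sign turned (0.10, adjusted p = 0.152).

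Dusp2 and Dusp4 were scarce. Dusp2 (NCBI gene 13537), first known from activated lymphocytes, had 8 to 47 counts a library in TREM-1+ and 6 to 39 in TREM-1- libraries. It averaged 1.76 ± 1.76 CPM in TREM-1+ against 1.16 ± 0.872 CPM in TREM-1- libraries (SD, n = 6). It was higher in TREM-1+ in 5 of 6 lavages, but lavage 6 went the other way and the interval was wide (log2 fold change 0.45, 95% interval -0.37 to 1.26, edgeR adjusted p = 0.623). The log2 fold change of Dusp2 was 0.25 without lavage 5 and 0.82 without lavage 6. Dusp4 (NCBI gene 319520), a close relative of Dusp1, averaged 5.21 ± 2.26 CPM in TREM-1+ against 4.79 ± 1.21 CPM in TREM-1- libraries (SD, n = 6). It was higher in TREM-1+ in 3 lavages and lower in 3 (log2 fold change 0.08, 95% interval -0.31 to 0.48, edgeR adjusted p = 0.888). Without lavage 3 its log2 fold change was -0.08.

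Dusp6, Dusp7 and Dusp9 encode the cytoplasmic phosphatases selective for ERK. Dusp6 (NCBI gene 67603), which ERK signalling itself induces, had 333, 439 and 568 CPM in the lowest, median and highest TREM-1+ library, against 402, 584 and 687 CPM in TREM-1- libraries. The ranges overlapped, yet the TREM-1+ library was the lower one in each lavage. Within a lavage TREM-1+ over TREM-1- was 0.710 at the least (lavage 3) and 0.828 at the most (lavage 5). The mean was 440 ± 83.2 CPM in TREM-1+ against 568 ± 98.3 CPM in TREM-1- eosinophils (SD, n = 6). edgeR put the log2 fold change at -0.37 ± 0.03 (SE, adjusted p = 1.77e-09), which ranked 68th by p among the tested genes. Its exact permutation of signs gave p = 0.0312. A gene was lower in 6 of 6 lavages in 8.31% of all tested genes. It remained lower and called in each of the 14 alternatives with the block (-0.40 to -0.24).

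Dusp7 (NCBI gene 235584) had 12.0, 14.4 and 19.8 CPM in the lowest, median and highest TREM-1+ library and 12.8, 15.8 and 18.4 CPM in TREM-1- libraries. It was higher in TREM-1+ in 3 lavages and lower in 3, with TREM-1+ over TREM-1- lowest in lavage 2 (0.670) and highest in lavage 6 (1.41). Its log2 fold change was -0.05 (95% interval -0.28 to 0.18, edgeR adjusted p = 0.871), and the sign turned without lavage 2 (0.05). Dusp9 (NCBI gene 75590), an ERK phosphatase known from the placenta, had 8 counts over all TREM-1+ libraries and 19 over all TREM-1- libraries. It had a count of 0 in the TREM-1+ libraries of lavages 3, 4 and 5, which allows up to 0.204, 0.308 and 0.191 CPM (3 counts each, counting error only). Its difference was not tested.

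Dusp8, Dusp10 and Dusp16 encode phosphatases that prefer JNK and p38 to ERK. Dusp16 (NCBI gene 70686) had 22.7, 38.9 and 40.7 CPM in the lowest, median and highest TREM-1+ library, against 35.9, 44.3 and 52.4 CPM in TREM-1- libraries. The TREM-1+ library was the lower one in each lavage, by most in lavage 5 (ratio 0.597) and by least in lavage 6 (0.936). The mean was 35.4 ± 7.12 CPM in TREM-1+ against 44.3 ± 6.62 CPM in TREM-1- eosinophils (SD, n = 6). edgeR put the log2 fold change at -0.34 ± 0.07 (SE, adjusted p = 0.00131), and the exact permutation of signs gave p = 0.0312. Without lavage 5 it was -0.26 (edgeR adjusted p = 0.0153). With library totals alone it was -0.21 and no longer called (adjusted p = 0.0910), a scaling that moved the median of all genes to 0.13.

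Dusp10 (NCBI gene 63953), which inactivates p38 and JNK in both cytoplasm and nucleus, did not pass the test. It averaged 5.87 ± 1.32 CPM in TREM-1+ against 4.76 ± 1.17 CPM in TREM-1- libraries (SD, n = 6). It was higher in TREM-1+ in 5 of 6 lavages and level in lavage 6, where the ratio was 0.998. Its edgeR log2 fold change came to 0.31 ± 0.16 (SE, adjusted p = 0.301, 95% interval -0.02 to 0.64). Dusp8 (NCBI gene 18218) averaged 1.33 ± 0.439 CPM in TREM-1+ against 1.09 ± 0.326 CPM in TREM-1- libraries (SD, n = 6), with a log2 fold change of 0.26 (95% interval -0.48 to 1.01, edgeR adjusted p = 0.787). Without lavage 4 the log2 fold change of Dusp8 was 0.10. These intervals do not separate either gene from a change as large as that of Dusp5.

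**Figure D3:**
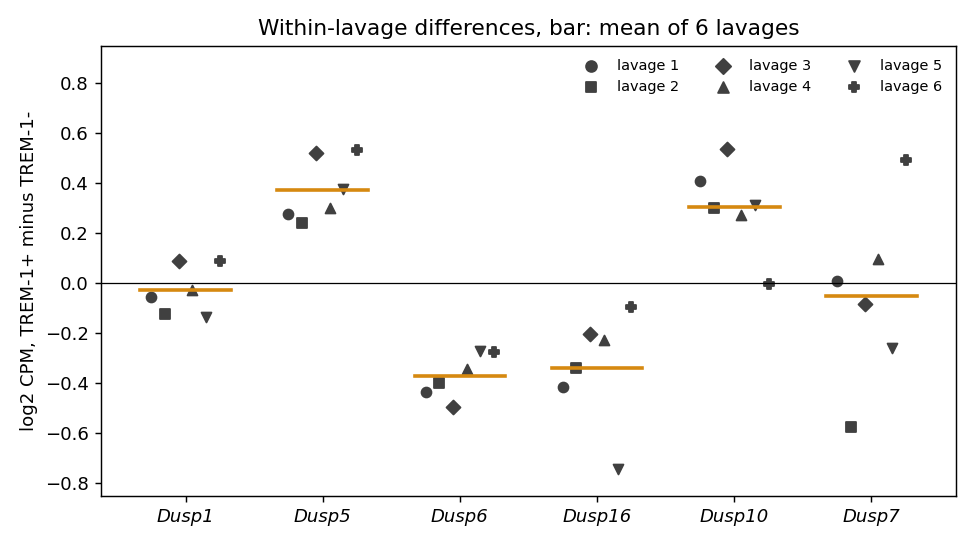
Difference of log2 CPM, TREM-1+ minus TREM-1- of the same lavage, for 6 members, with a symbol for each lavage and a bar at the mean. All 6 symbols of Dusp5 lie above 0 and all 6 of Dusp6 and of Dusp16 below it, and those of Dusp1 lie within -0.13 to 0.09.

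The 4 most abundant members were then set against each other within each library, since a ratio of 2 counts does not depend on how libraries are scaled. These 6 ratios were chosen after the values had been seen. The ratio of Dusp5 to Dusp6 counts was 0.213, 0.226, 0.257, 0.195, 0.353 and 0.152 in the TREM-1+ libraries of lavages 1 to 6, against 0.130, 0.145, 0.127, 0.124, 0.225 and 0.0870 in their TREM-1- partners. It was 1.68-fold higher in TREM-1+ on average (mean log2 difference 0.75 ± 0.15, SD, n = 6), and Dusp5 over Dusp16 had a mean log2 difference of 0.71. Since Dusp5 was higher and Dusp6 and Dusp16 lower in each lavage, the direction of these ratios was already given, and they are described without a test. For Dusp5 and Dusp6 against Dusp1 the direction was given as well. The paired log2 differences of Dusp5 were at least 0.24, those of Dusp6 at most -0.27, and those of Dusp1 from -0.13 to 0.09. Dusp5 over Dusp1 was higher in TREM-1+ in 6 of 6 lavages (mean log2 difference 0.40). Dusp6 over Dusp1 was lower in 6 of 6 (-0.34). The range of Dusp16 (-0.74 to -0.095) overlapped that of Dusp1. Dusp16 over Dusp1 was lower in 6 of 6 (-0.31, exact two-sided permutation of signs, p = 0.0312). The adjusted p of this ratio over all 6 (0.0375) counts ratios whose direction was given, so it is not read as a passed threshold. The ratio of Dusp16 to Dusp6 differed by 0.03 ± 0.26 (SD, n = 6, exact permutation of signs, p = 0.750). It was higher in TREM-1+ in 5 of 6 lavages, and ran from -0.47 in lavage 5 to 0.29.

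Promoters are shown for Dusp5, Dusp6 and Dusp16, whose levels differed between the fractions, and for Dusp1, which did not pass the test. They run from 250 bases before to 50 after the gene's start, 5′ to 3′ along the gene, and come from RefSeq (build GRCm38.p6), whose promoters of 8 of the 10 members were used. Capitals mark the cyclic AMP response element TGACGTCA, its half-site TGACG on either strand, and the CArG box, the motif of serum response factor.
Dusp5 (chr19:53528895-53529194, plus strand): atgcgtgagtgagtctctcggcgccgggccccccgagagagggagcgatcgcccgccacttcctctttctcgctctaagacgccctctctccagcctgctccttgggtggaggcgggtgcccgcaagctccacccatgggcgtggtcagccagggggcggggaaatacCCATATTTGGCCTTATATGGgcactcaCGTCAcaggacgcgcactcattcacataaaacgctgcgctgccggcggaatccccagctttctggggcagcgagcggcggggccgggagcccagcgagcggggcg
Dusp6 (chr10:99262981-99263280, plus strand): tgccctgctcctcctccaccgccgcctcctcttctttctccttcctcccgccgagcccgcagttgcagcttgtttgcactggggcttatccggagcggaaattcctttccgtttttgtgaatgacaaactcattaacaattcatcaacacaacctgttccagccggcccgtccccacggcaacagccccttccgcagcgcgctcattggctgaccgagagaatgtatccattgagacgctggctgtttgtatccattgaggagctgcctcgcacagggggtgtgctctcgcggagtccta
Dusp16 (chr6:134792579-134792878, minus strand): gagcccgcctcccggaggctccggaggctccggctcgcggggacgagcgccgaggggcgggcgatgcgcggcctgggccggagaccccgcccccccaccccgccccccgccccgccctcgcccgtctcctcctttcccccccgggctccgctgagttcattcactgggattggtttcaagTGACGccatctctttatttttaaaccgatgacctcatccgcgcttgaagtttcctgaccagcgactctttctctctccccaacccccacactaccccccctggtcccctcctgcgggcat
Dusp1 (chr17:26508423-26508722, minus strand): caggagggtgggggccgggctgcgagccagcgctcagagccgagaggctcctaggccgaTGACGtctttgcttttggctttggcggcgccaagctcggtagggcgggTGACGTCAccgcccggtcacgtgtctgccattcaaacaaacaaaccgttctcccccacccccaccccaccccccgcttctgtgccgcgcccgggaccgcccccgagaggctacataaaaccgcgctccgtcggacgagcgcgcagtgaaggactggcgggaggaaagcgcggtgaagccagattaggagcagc
The Dusp5 window held 2 CArG boxes, which occurred in 1.57% of 27025 promoters of the same length, and 1 half-site outside a full element, which occurred in 19.7%. The Dusp1 window held 1 full cyclic AMP response element (1.88% of promoters) and 1 further half-site. The Dusp16 window held 1 half-site, and the Dusp6 window held none of these motifs. Of the other members, Dusp8 held 2 full elements and Dusp2 1 half-site. The motif GAAANNGAAA of interferon-stimulated promoters (3.49% of promoters), the STAT motif TTCNNNGAA (8.47%) and the ETS motif CCGGAAGT (4.00%) were searched on both strands and matched in 0 of the 8 windows. A match is a run of letters and not a shown binding site.

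AU-rich elements in the 3′ untranslated region mark many short-lived messenger RNAs. The pentamer ATTTA occurred 4 times in the 690 bases of the Dusp1 region, or 5.80 per kb, and 4 times in the 581 bases of Dusp2, or 6.88 per kb. These lie at the 96.1 and 97.8 percentiles of the 11816 tested genes with such a region of at least 100 bases, whose median was 1.35 per kb. Dusp5 (0.902 per kb), Dusp6 (0.841) and Dusp16 (1.24), the 3 called members, were below that median, as were Dusp7 (0 in 1778 bases) and Dusp9 (0.905). Dusp4 (1.80), Dusp8 (2.11) and Dusp10 (2.70) were above it. The nonamer TTATTTATT occurred 2 times in Dusp1, 1 time in Dusp8 and in no other member, and in 8.39% of those 11816 genes.

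The wider MAP kinase pathway was described with 7 lists, in which 94 distinct genes were tested. Of these 21 were called lower and 4 higher in TREM-1+ eosinophils (26.6%, against 9.82% of all tested genes), with a median log2 fold change of -0.03. The 2 shares are not like with like. The lists were chosen with earlier results of these data known, and the genes were not matched for level, on which the standard error depends. Median levels ran from 3.28 CPM (atypical DUSPs) to 193 CPM (kinases that MAP kinases activate). With library totals alone 8 were called lower and 12 higher, so the balance of directions depended on the scaling. In the list of RAS and ERK cascade genes 1 of 14 was called, and it was lower. Among 19 tested genes of the p38 and JNK cascades, Map2k3, a kinase that activates p38, fell (log2 fold change -0.29), as did Map3k6 (-0.37), while Map3k20 was called higher (0.36, edgeR adjusted p = 0.0394). Of 10 kinases that MAP kinases activate, 4 were called lower, among them Mknk2 (-0.24), Mapkapk3 (-0.13) and Rps6ka1 (-0.12), and 0 higher.

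Of 11 tested ERK feedback genes other than DUSPs, 4 were called lower and 1 higher. Ier3, an early response gene that prolongs ERK activity, was 21.6 ± 2.40 CPM in TREM-1+ against 34.1 ± 5.05 CPM in TREM-1- eosinophils (SD, n = 6, log2 fold change -0.65). Spred2, an inhibitor of RAS signalling, fell by 0.28 on the log2 scale and Rasa2, a RAS GTPase-activating protein gene, fell by 0.14, while Nf1, another RAS GTPase-activating protein gene, rose by 0.19. Of 24 immediate early genes, 8 were called lower and 2 higher. Zfp36, whose product binds AU-rich elements and speeds decay, had 154 ± 36.4 CPM in TREM-1+ against 213 ± 46.3 CPM in TREM-1- eosinophils (SD, n = 6, log2 fold change -0.47). Junb (-0.32) and Ier5 (-0.27) fell, and Jun (0.25) and Egr2 (0.16) rose. Of 6 other phosphatases that act on MAP kinases, 2 were called lower, Ptpn7 (-0.14), a tyrosine phosphatase of ERK and p38 in leukocytes, and Ppp2ca (-0.12, edgeR adjusted p = 0.0499). Of 10 tested atypical DUSPs, most of which lack the docking domain of the family, edgeR called 0, as did DESeq2 and limma-voom. By edgeR 1 had an unadjusted p below 0.05. DESeq2 gave no adjusted p for the scarce Dusp2 and Dusp8. Whether it gave one for each atypical DUSP was not checked. With 9.82% of all tested genes called, 0 of 10 is near that share. Their median level was only 3.28 CPM, so the count does not show that they were unchanged.

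Among these named genes the calls of Ier3, Zfp36, Junb, Ier5, Jun, Spred2, Map2k3 and Map3k6 held in each of the 14 alternatives with the lavage block. Those of Rasa2, Mknk2, Mapkapk3, Rps6ka1, Ptpn7 and Ppp2ca were lost with library totals alone, and those of Map3k20 and Ppp2ca when any 1 lavage was left out. With all 6 lavages limma-voom lost Map3k20 (adjusted p = 0.0552) and Ppp2ca (0.0564), and edgeR without the filter lost Ppp2ca (adjusted p = 0.112). Without lavage 1 edgeR also lost Ptpn7 (adjusted p = 0.0669), Rps6ka1 (0.0690) and Mapkapk3 (0.106), and without lavage 6 it lost Rasa2 (0.0703) and Mapkapk3 (0.110). Without lavage 2 it lost Rps6ka1 (0.0522) and Mapkapk3 (0.0526), and without lavage 3 Mapkapk3 (0.0703). Without lavages 3 and 4 the calls of Egr2 (edgeR adjusted p = 0.0845) and Rps6ka1 (0.0875) were lost. When only lavages 1 and 2 were fitted, those of Egr2 (edgeR adjusted p = 0.532) and Rasa2 (0.237) were lost. With lavages 3 to 6 alone those of Nf1 (edgeR adjusted p = 0.0583), Mapkapk3 (0.195), Ptpn7 (0.231) and Rps6ka1 (0.255) were lost.

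**Figure D4:**
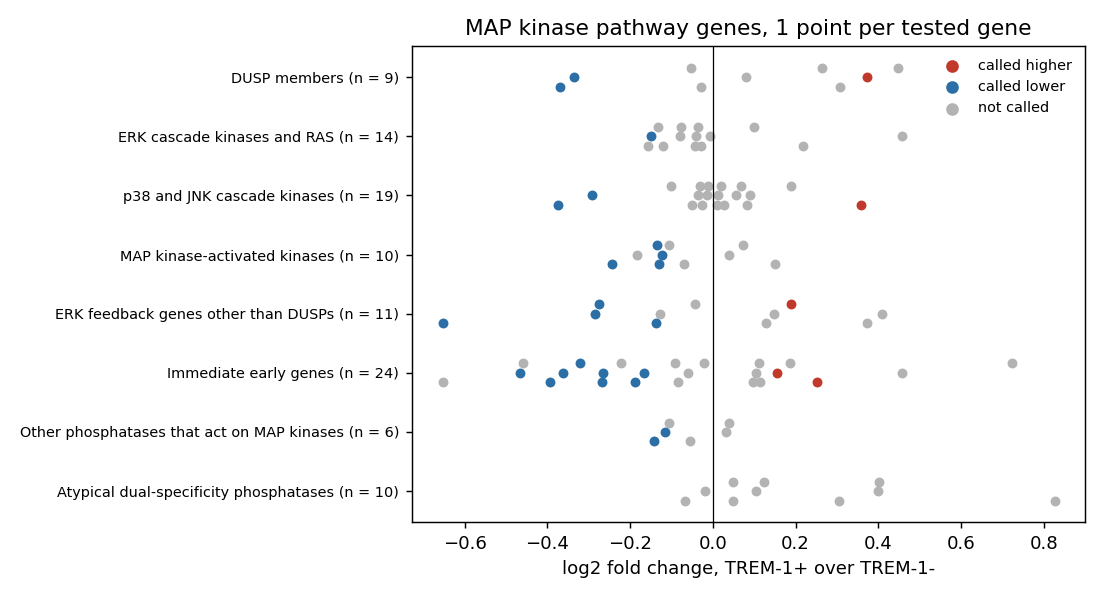
edgeR log2 fold change, TREM-1+ over TREM-1-, of each tested gene of the DUSP members and 7 lists of the MAP kinase pathway (points, with red called higher, blue called lower and grey not called). The DUSP members split to both sides, while 8 of the 10 called immediate early genes lie below 0.

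The genes whose levels followed each member most closely over the 12 libraries were taken by Pearson's r of log2 CPM among the 10966 other genes with a mean of at least 5 CPM. These coefficients describe libraries that share lavages and scaling, and are given without a test. Dusp6 was most like Gm8995 (r = 0.98), Rsad2 (0.98), which encodes the antiviral enzyme viperin, and Ifi47 (0.98), an interferon-inducible GTPase gene. Those 3 also fell in TREM-1+ eosinophils (log2 fold changes -0.56, -0.86 and -0.70). Once the mean of each fraction was removed the coefficients of Dusp6 were 0.97, 0.97 and 0.98, and those of Dusp5 with the genes named next were 0.85, 0.79 and 0.81. Dusp5 was most like Ifi30 (r = 0.92), which encodes a lysosomal thiol reductase and rose in TREM-1+ (0.89), then Ptpn3 (0.90) and Fam193a (0.90). Dusp1 was most like Gm34455 (0.95), Maff (0.95), a small MAF transcription factor gene on the immediate early list, and Apol8 (0.94). Dusp16 was most like Zfp189 (0.95), Tmem192 (0.95) and Wdr24 (0.92), and Dusp10 most like Gm40781 (0.96), Gm52771 (0.94) and Zscan12 (0.94). The closest genes to Dusp4 were F930017D23Rik (0.89), Slc39a11 (0.87) and Zpbp (0.84), and those to Dusp7 were Spata2 (0.83), Evi2 (0.81) and Tob2 (0.80).

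**Figure D5:**
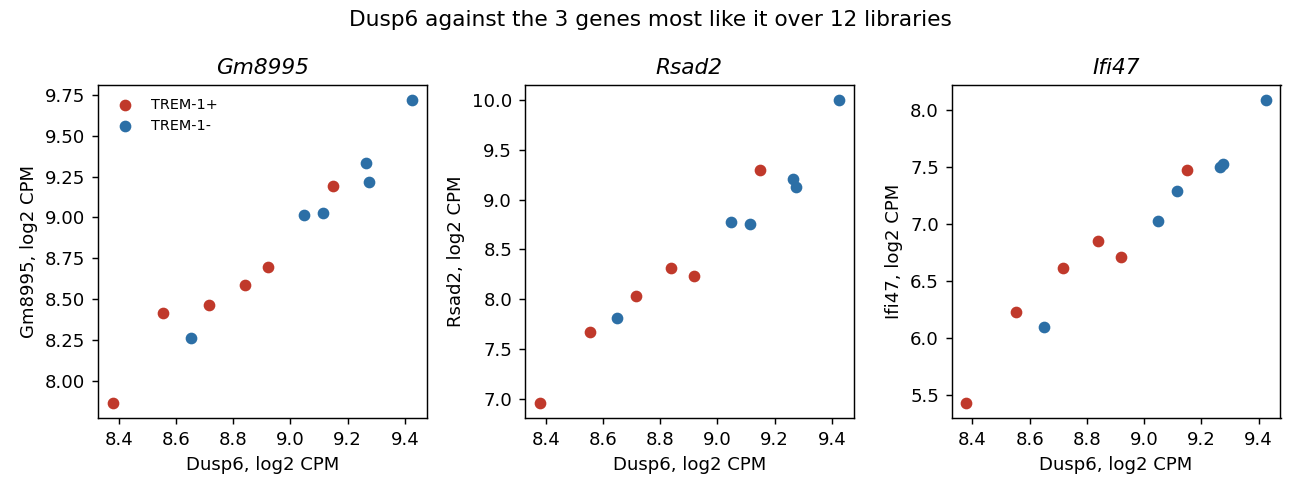
log2 CPM of Dusp6 (horizontal axes) against that of Gm8995, Rsad2 and Ifi47 (vertical axes) in 6 TREM-1+ (red) and 6 TREM-1- (blue) libraries. The points of both fractions lie along 1 line in each panel, with r = 0.98.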

How the data were processed

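Per the labels' protocols, RNA of the sorted cells went through ribosomal depletion and a strand-keeping kit, and the libraries shared 1 sequencing lane. The deposited table holds estimated counts per gene, whole numbers as deposited, so that rounding changed 0 values. The genome build GRCm39 and the tools edgeR 3.42.4, kallisto 0.45.0 and R 4.3.0 are listed, per the submitters' processing notes, without saying what each was used for. The authors' deposited log2 CPM values served as a check of the members: 8 of them are among its 17934 genes. For those 8, log2 CPM recomputed from the counts differed from the deposited values by at most 4.9e-10. Of the per-sample columns 0 were left unused.

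The test was edgeR 4.0.16's robust quasi-likelihood F test under R 4.3.3, after TMM scaling and filterByExpr (count at least 10, total at least 15), for TREM-1+ minus TREM-1-, with the lavage as a block and Benjamini-Hochberg adjustment over all tested genes. Standard errors derive from the F statistic, and paired differences use log2 CPM with a prior count of 1. DESeq2 1.42.0, limma 3.58.1, other scalings, no filter and subsets of lavages were alternatives. The fit was tested on simulated data.

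The design text pairs the fractions by lavage. After removing fraction means, partners correlated at 0.13 (lavage 3) to 0.50 (lavage 2), and each TREM-1+ library except that of lavage 3 was most like its own partner. Whether the 6 pools hold different mice is not stated. The p-values of sign permutations measure only the spread between these pools, while those of edgeR also draw on the spread of other genes. The members and lists were chosen with earlier results of these data known. Besides the members and Trem1, the text names in each pathway list up to 3 called genes of smallest p per direction, and for each member of at least 5 CPM the 3 genes of highest r. The called gene of the RAS and ERK cascade list is not reported here.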

Additional observations from a re-analysis of the deposited data

Results flagged for a closer look

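The values of each member in each fraction and the paired differences, 30 sets of 6 values in all, were searched for a library far from the others. Dixon's criterion, the gap to the nearest value over the whole range, marked 3 sets, where chance marks about 1 in 20. In Dusp2 the paired log2 difference of lavage 6 was -1.40, while the other lavages lay between 0.36 and 1.40. That difference rests on 9 counts in the TREM-1+ and 24 in the TREM-1- library. In Dusp5 the TREM-1+ library of lavage 5 was high at 117 CPM, while the others lay between 86.4 and 97.7 CPM. Its TREM-1- partner was also the highest of its fraction, at 90.4 CPM, and without lavage 5 the log2 fold change was 0.38 (edgeR adjusted p = 1.45e-05). In Dusp9 the TREM-1- library of lavage 5 was high at 0.489 CPM, or 9 counts, while the others lay between 0.0495 and 0.198 CPM.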

How the results depend on the processing

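Across the alternatives the 3 called members kept their direction. Without the lavage block Dusp5 (log2 fold change 0.37, adjusted p = 0.177), Dusp6 (-0.37, adjusted p = 0.452) and Dusp16 (-0.32, adjusted p = 0.586) were not called, so 0 members were higher and 0 lower. The block also changed the counts over the pathway lists (0 higher and 1 lower without it) and over all genes (27 higher and 56 lower, against 568 and 1229 with it). With library totals alone 1 member was called lower, and the lists had 12 higher and 8 lower, and over all genes 1880 were higher and 376 lower. In lavages 3 to 6 alone the lists had 2 higher and 12 lower, and over all genes 366 were higher and 802 lower. Without lavages 3 and 4 there were 2 list genes and 347 genes higher, and in lavages 1 and 2 alone, an alternative added after seeing the data, 2 list genes higher. Leaving out 1 lavage at a time left 1 member higher and 2 lower throughout, 3 to 4 list genes higher and 14 to 21 lower, and 404 to 474 genes higher and 981 to 1137 lower. Signs turned for Dusp1 with library totals (0.10) and in lavages 3 to 6 (0.00017), Dusp4 without lavage 3 (-0.083, in a range of -0.083 to 0.231 over leaving out each lavage) and without lavages 3 and 4 (-0.025), Dusp7 with library totals (0.071), without lavage 2 (0.053, in a range of -0.160 to 0.053) and in lavages 3 to 6 (0.061), and Ppp2ca (0.011) and Rps6ka1 (0.0047) with library totals. The cause was not tested, beyond that some of these fits hold fewer libraries. A prior count of 3 changed no direction of a paired difference. Depth limits Dusp2, Dusp8 and Dusp9, which had at most 47, 28 and 9 counts in any library, and Dusp2 did not pass the filter in 4 of the subsets.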
